A study of Homo sapiens with 2 samples.

Results

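Expansion segment 7 of 28S rRNA was taken as the positions after 435 and before 1312 of the deposited table, counted from 1 at the 5′ end of 28S. This fixed range holds 876 of the 6940 positions of the table, and the name of the segment is approximate at its edges. Coverage, the number of reads that span a position, was compared between 1 ZAK-alpha-RBR pull-down library and 1 mock pull-down library, both from U2OS cells, a human osteosarcoma line. The labels do not say how the RBR construct was made, what the mock pull-down held, or whether the cells were treated. ZAKα is the long isoform of the kinase MAP3K20, and the series asks how it recognises stalled ribosomes. The assay was CLIP-seq, in which RNA fragments that come down with a protein are sequenced.

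28S rRNA is the main RNA of the large ribosomal subunit. Expansion segments are insertions in the rRNA of eukaryotes, placed mostly on the outer, solvent side of the ribosome, and expansion segment 7 (ES7L) is among the longest, with long GC-rich helices that are much shorter in yeast. The 28S genes lie in tandem arrays with many copies, of which the RefSeq table for GRCh38.p14 names 5 (RNA28SN1 to RNA28SN5), so no chromosome position is given. The bases here fit the label: 83.1% of the segment is G or C, against 66.5% of the rest of 28S.

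The stretches that carry the results are given first, as RNA 5′ to 3′ from the deposited table, with the called or named positions in capitals and 15 flanking positions on each side in lower case. The first 4 are the regions called higher in the ZAK-alpha-RBR library, and the next 4 are stretches whose ends or low values the results turn on.
28S 1086 to 1110: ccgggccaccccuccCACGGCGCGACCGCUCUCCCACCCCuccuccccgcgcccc
28S 759 to 793: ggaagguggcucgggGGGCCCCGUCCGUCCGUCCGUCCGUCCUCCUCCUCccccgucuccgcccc
28S 492 to 514: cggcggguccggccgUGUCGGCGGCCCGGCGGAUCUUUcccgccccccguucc
28S 583 to 601: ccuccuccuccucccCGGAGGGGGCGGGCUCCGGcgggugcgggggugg
28S 452 to 469: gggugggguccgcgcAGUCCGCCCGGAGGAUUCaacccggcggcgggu
28S 686 to 691: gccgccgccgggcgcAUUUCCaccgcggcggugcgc
28S 903 to 934: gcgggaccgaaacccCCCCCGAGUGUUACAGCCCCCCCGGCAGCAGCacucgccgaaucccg
28S 871 to 891: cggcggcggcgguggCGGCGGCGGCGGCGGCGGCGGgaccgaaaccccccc

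Values are given as read depth, or as parts per 1000000 (ppm) of the summed coverage of a library. Log2 ratios are ZAK-alpha-RBR over mock after adding 1 ppm to both, which understates differences at low coverage, and folds carry no such addition. With 1 library per group no test was made and no spread between libraries is known. Intervals are exact at 95% (Poisson for depths, binomial for shares and ratios) and cover counting error only.

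The segment was thinly covered in both libraries and made up more of the ZAK-alpha-RBR library than of the mock. Read depth per position in the segment ran from 10 to 1933 with a median of 386.5 with ZAK-alpha-RBR, and from 118 to 14746 with a median of 3020.5 with the mock. In the rest of 28S the median depth was 781 for ZAK-alpha-RBR and 10660.5 for the mock. The segment holds 12.6% of all positions of the table, but only 6.81% of the ZAK-alpha-RBR coverage (6.44 to 7.20) and 4.37% of the mock coverage (4.25 to 4.50) fell on it. These intervals rest on the smallest possible numbers of reads, 17111 and 98906, which add the deepest position of 18S to that of 28S in the pull-down with ZAK-alpha-RBR and in the mock.

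Mean coverage of the segment was 77.8 ppm with ZAK-alpha-RBR and 49.9 ppm with the mock, a 1.56-fold difference (log2 ratio 0.63). The mean of the rest of 28S went the other way, with 137 ppm with ZAK-alpha-RBR and 150 ppm with the mock (0.914-fold). Its median log2 ratio was 0.02, and ZAK-alpha-RBR was above the mock at 50.7% of its positions. Each library is scaled to a fixed sum, so an excess in 1 part lowers the others. On 18S the means were 192 ppm with ZAK-alpha-RBR and 176 ppm with the mock (1.09-fold). The difference was wider just inside the range than just outside it. The first 25 positions inside it had 199 ppm with ZAK-alpha-RBR and 120 ppm with the mock, and the 25 positions just upstream had 152 ppm and 140 ppm. At the 3′ edge, the last 25 positions inside had 143 ppm with ZAK-alpha-RBR and 86.3 ppm with the mock, and the 25 positions just downstream had 119 ppm and 114 ppm. GC content also differed, at 84% inside and 48% outside at the 5′ edge, and 80% and 56% at the 3′ edge. Its part in the edge difference was not tested.

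**Figure D1:**
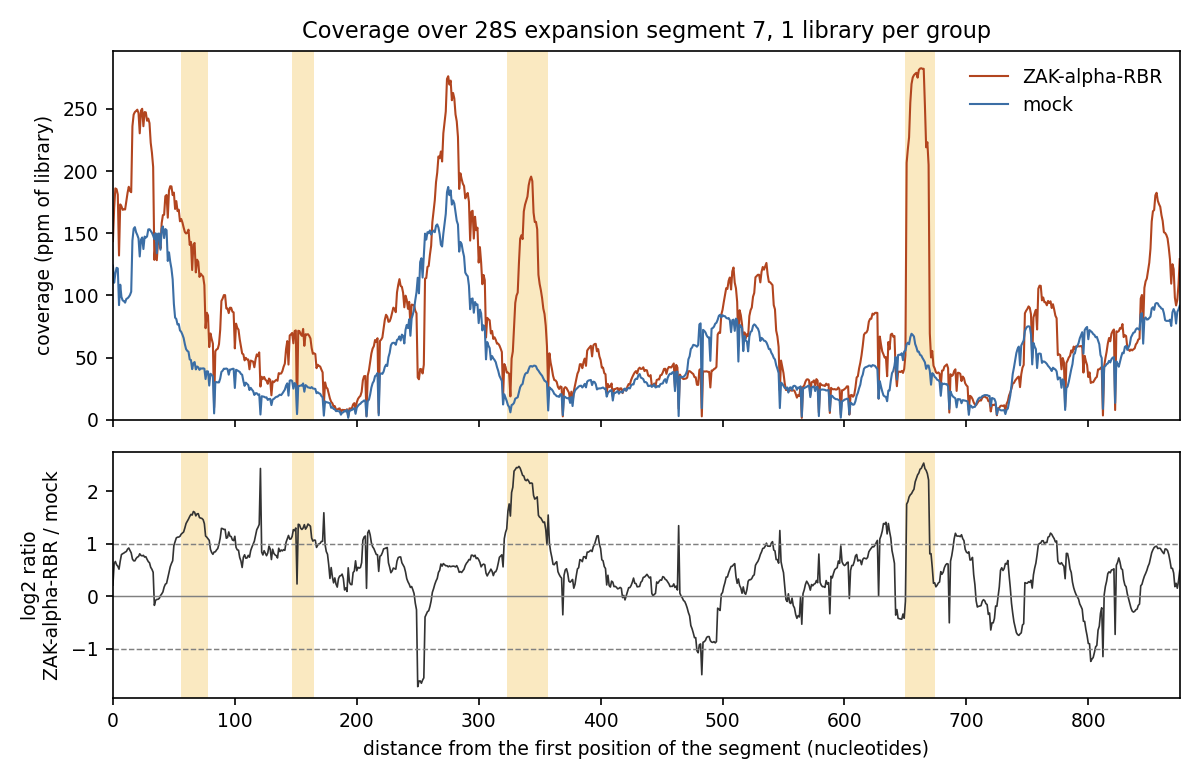
Coverage in ppm (upper panel) and its log2 ratio (lower panel) at each of the 876 positions, against the distance from the first position of the range; shaded bands are the 4 regions called higher, and dashed lines mark 2-fold differences. The ZAK-alpha-RBR line lies above the mock line at 734 positions.

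The excess was spread along the segment. ZAK-alpha-RBR coverage was above the mock at 734 of the 876 positions (83.8%), while over the whole table this was so at 54.5% of positions. Of the 876 positions, ZAK-alpha-RBR was at least 2-fold higher at 183 (20.9%), against 9.31% of all positions of the table. It was at least 2-fold lower at 14 (1.60%), against 11.9% of all positions. At least 4-fold higher were 31 positions of the segment (3.54%), against 52 in the table (0.749%), of which the remaining 21 lay on 18S. At least 4-fold lower were 0 of the 876 positions, against 131 positions of the rest of 28S (3.12%) and 2.55% of all positions of the table. Neighbouring positions share reads, so these counts are not counts of separate events. The 183 higher positions formed 20 runs, of which the longest were 757 to 791, 487 to 515 and 1087 to 1105.

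In 16 of 18 consecutive blocks of 50 positions (the last holds 26) the mean coverage was higher with ZAK-alpha-RBR, and in 4 of these it was at least 2-fold higher. The median block was 1.47-fold higher. The block at 1086 to 1135 stood highest, with 121 ppm with ZAK-alpha-RBR and 36.6 ppm with the mock (3.32-fold), followed by 736 to 785 with 103 ppm and 38.7 ppm (2.67-fold). The blocks at 486 to 535 and 586 to 635 were 2.40-fold and 2.10-fold higher. The other direction was seen in the block at 886 to 935, with 39.2 ppm with ZAK-alpha-RBR and 51.4 ppm with the mock (0.762-fold), and in that at 1136 to 1185, with 21.4 ppm and 23.6 ppm (0.904-fold).

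**Figure D2:**
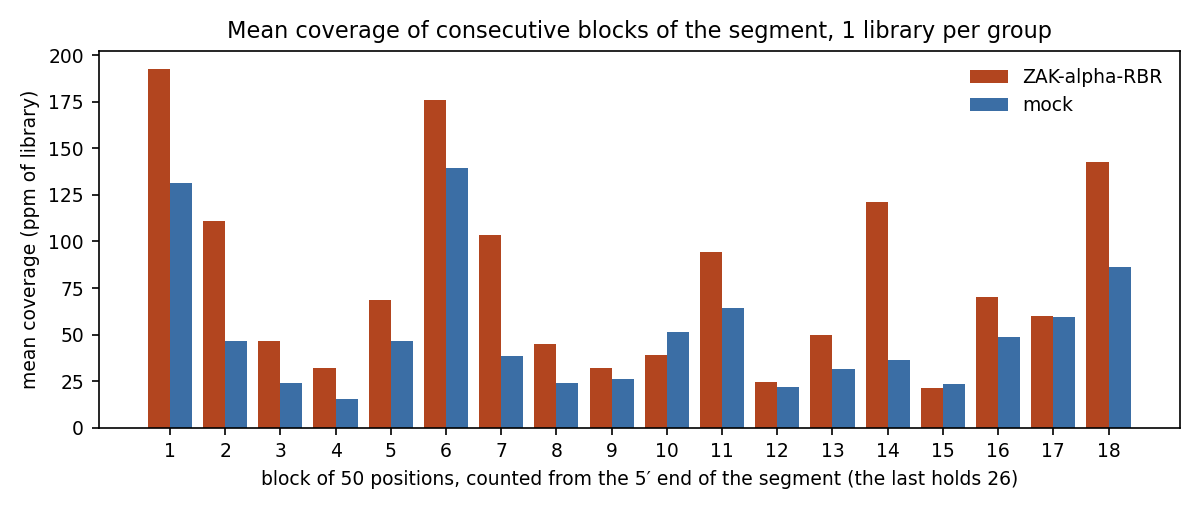
Mean coverage in ppm of the 18 consecutive blocks, with the ZAK-alpha-RBR bar left of the mock bar; there are no error bars because each group is 1 library. Blocks 10 and 15 are those where the mock bar is the taller one, and block 14 (positions 1086 to 1135) has the widest relative gap.

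Regions were called on profiles averaged over 15 positions, where their ratio differed from the 28S median ratio by 2-fold or more, in 1 direction, for 10 or more consecutive positions. The segment, 876 of the 5070 positions of 28S, held 4 of the 9 higher regions of 28S and 102 of their 177 positions. It held 0 of the 23 lower regions, and the nearest of those lay at 359 to 373 and at 1336 to 1345, outside both edges. Together the 4 regions took 19.6% of the coverage of the segment for ZAK-alpha-RBR and 8.87% for the mock. They made up 38.9% of the net excess of ZAK-alpha-RBR over the segment. The other 774 positions had 70.8 ppm with ZAK-alpha-RBR and 51.5 ppm with the mock, still 1.37-fold higher, and ZAK-alpha-RBR was the higher one at 633 of them.

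The region at 1086 to 1110 held the deepest ZAK-alpha-RBR positions of the segment. Its mean coverage was 207 ppm with ZAK-alpha-RBR and 51.6 ppm with the mock (4.02-fold). At position 1099, 1933 ZAK-alpha-RBR reads (1848 to 2021) stood against 4064 mock reads (3940 to 4191), a 5.48-fold difference after scaling (5.19 to 5.79). The highest ratio of the segment was at position 1101, with 1930 ZAK-alpha-RBR reads and 3777 mock reads, 5.89-fold (5.57 to 6.22).

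The edges of this peak were sharp in the ZAK-alpha-RBR library and not in the mock. From position 1086 to 1087, a C followed by an A, ZAK-alpha-RBR depth changed from 355 to 1413 reads, which is 54.7% of the height of the peak. From 1105 to 1106, again a C followed by an A, it changed from 1401 to 474 reads, 48.0% of the height. At the same places the mock changed from 4373 to 4778 reads and from 3427 to 3091 reads. Between these steps lie 19 positions, 1087 to 1105, with 256 ppm with ZAK-alpha-RBR and 55.7 ppm with the mock. Immediately upstream, coverage at 1078 to 1086 was 39.0 ppm with ZAK-alpha-RBR and 50.1 ppm with the mock, so on that side the excess stopped at the step. Downstream a smaller excess went on past the other step, with 69.3 ppm with ZAK-alpha-RBR and 39.3 ppm with the mock at 1106. ZAK-alpha-RBR stayed above the mock at every position through 1121. Reads from separate molecules and amplified copies of 1 molecule cannot be told apart in a coverage table.

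**Figure D3:**
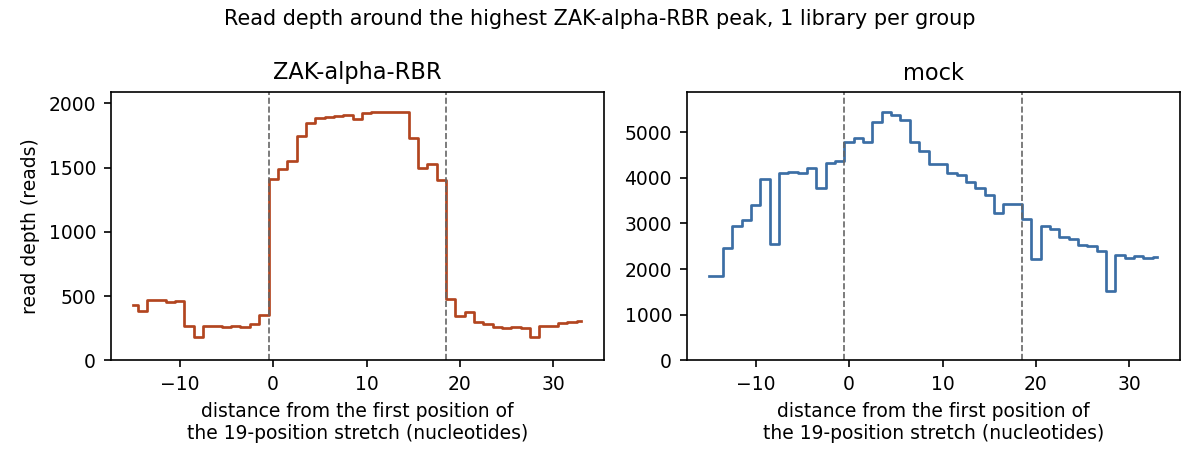
Read depth in the ZAK-alpha-RBR library (left) and the mock (right) from 1072 to 1120, against the distance from position 1087; each panel has its own depth axis and the dashed lines mark the C-A steps at both ends of the 19 positions. The ZAK-alpha-RBR depth steps up to 1413 reads at the first line and down to 474 reads at the other. At the same lines mock depth changes from 4373 to 4778 reads and from 3427 to 3091 reads, and its sharp dips lie at runs of C.

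The region at 759 to 793 had the other large ratio but a different shape. Mean coverage was 115 ppm with ZAK-alpha-RBR and 28.7 ppm with the mock (4.02-fold), and position 769 had 860 reads (803 to 919) with ZAK-alpha-RBR and 1724 reads (1644 to 1807) with the mock, 5.75-fold (5.29 to 6.24). Most of the region consists of 5 copies of GUCC at 766 to 785, where coverage was 154 ppm with ZAK-alpha-RBR and 34.1 ppm with the mock (4.52-fold), followed by CCU repeats. Depth dips at runs of equal bases. Once these dips were filled, the largest single step up before the peak was 13.3% of the peak height for ZAK-alpha-RBR and 18.9% for the mock. Both lay from 756 to 757, inside a run of 6 G where filling left part of the dip, so they do not describe the slope of the peak. The largest step down after the peak was 18.7% for ZAK-alpha-RBR, from 784 to 785. For the mock it was 20.1%, from 792 to 793, at the start of a run of C. In the depths as deposited the largest step up was 15.6% for ZAK-alpha-RBR and 43.0% for the mock, and the largest step down was 18.7% and 50.8%. Both of these mock steps lie at position 793, the first of a run of 5 C. Both libraries had a local peak here, at 1337 reads with ZAK-alpha-RBR and 3423 reads with the mock.

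The remaining higher regions were smaller in ratio. The region at 492 to 514 averaged 129 ppm with ZAK-alpha-RBR and 47.9 ppm with the mock (2.68-fold), and its peak position 504 had 810 and 3183 reads, 2.93-fold (2.71 to 3.17). There both profiles slope down from the peak at the 5′ end of the segment, with depth between 503 and 1104 reads with ZAK-alpha-RBR and between 2575 and 5566 reads with the mock. The region at 583 to 601 averaged 62.8 ppm with ZAK-alpha-RBR and 25.7 ppm with the mock (2.45-fold), and position 591 had 461 and 2156 reads, 2.46-fold (2.22 to 2.73). It was the shallowest of the 4, with a median depth of 468 reads with ZAK-alpha-RBR and 2122 reads with the mock, and it was not called with a pseudocount of 10 ppm, when positions of low coverage were left out, or when 20 or more positions were asked for, since it has 19. At 1196 to 1210 a run of 15 positions was also at least 2-fold higher, but the averaged ratio there did not make a region.

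Both libraries shared the main peak of the segment around position 712, which was not among the higher regions. After averaging over 15 positions, it reached 248 ppm with ZAK-alpha-RBR and 166 ppm with the mock, the highest mock value of the segment and second to the peak at 1096 in the ZAK-alpha-RBR library. The deepest mock position, A at 711, had 14746 mock reads and 1889 ZAK-alpha-RBR reads, 1.48-fold (1.41 to 1.55). The next ZAK-alpha-RBR peak lay at position 459, with 244 ppm with ZAK-alpha-RBR and 147 ppm with the mock. The next mock peak lay at 472, where the profiles came close, at 174 ppm with ZAK-alpha-RBR and 149 ppm with the mock. The third mock value named by the same rule lay at the first position of the range, on a slope that the edge of the range cuts rather than at a peak, with 149 ppm with ZAK-alpha-RBR and 124 ppm with the mock. Across the 876 positions log2 coverage correlated between the libraries (r = 0.84), as a description, since neighbouring positions share reads.

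The places where the mock was higher were short. The longest run with the mock above ZAK-alpha-RBR at every position was 903 to 934, of 32 positions, with a log2 ratio of -0.64. It spans the end of the longest run of C in the segment, an A- and U-containing stretch and a run of CAG. The 14 positions at least 2-fold lower formed 5 runs, of which 686 to 691 was the longest. At these 6 positions ZAK-alpha-RBR had between 222 and 302 reads and the mock between 8005 and 10367 reads. At position 686 this was a 3.36-fold lower value with ZAK-alpha-RBR, from 232 reads (203 to 264) against 8991 reads. The other runs were 1238 to 1241 and 915 to 916, where ZAK-alpha-RBR depth was between 191 and 218 reads, and the single positions 919 and 1248, the first bases of runs of C.

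The 6 positions at 686 to 691 were, like the peak at 1087 to 1105, bounded by a C followed by an A at both ends, but with the opposite sign. ZAK-alpha-RBR depth was 585 reads before the stretch and 776 after it, and between 222 and 302 within, while mock depth was 8075 reads before it and 11786 after it. In the segment such C-A steps are rare, 17 of 875 neighbouring pairs (1.94%), against 3.63% in the rest of 28S. They held 12.2% of the summed steps up of ZAK-alpha-RBR coverage and 6.44% of those of the mock. Of the summed steps down, they held 9.51% for ZAK-alpha-RBR and 0.905% for the mock. In the rest of 28S, C-A pairs held 19.2% of the steps up for ZAK-alpha-RBR and 12.1% for the mock, and 19.0% and 12.0% of the steps down, so the higher share with ZAK-alpha-RBR was not limited to the segment. With dips filled, the shares in the segment were 17.3% for ZAK-alpha-RBR and 10.3% for the mock of the steps up, and 13.5% and 1.44% of the steps down. The ends of the peak at 1087 to 1105 alone held 6.54% of these steps up and 5.69% of these steps down for ZAK-alpha-RBR. A step is the net of reads that start and reads that end, and as deposited the sums also take in the dips at runs of equal bases. After filling of dips at runs of equal bases, the 3 largest steps up and the 3 largest steps down of the ZAK-alpha-RBR library in the segment all fell on C-A pairs. The largest step up of the mock was on a C-A pair too, from 8107 reads at 451 to 11347 reads at 452.

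Of the 16 stretches between neighbouring C-A steps in the segment, 7 were at most 25 positions long. The longer of these, 1087 to 1105 and 452 to 469, were higher with ZAK-alpha-RBR (log2 ratios 2.18 and 0.69). The stretch at 452 to 469, 18 positions long, contains the ZAK-alpha-RBR peak at 459, and its mean was 239 ppm with ZAK-alpha-RBR and 148 ppm with the mock. At its end, from 469 to 470, ZAK-alpha-RBR depth changed from 1390 to 879 reads, while mock depth changed from 11661 to 11435 reads. The other 5 stretches, of 3 to 12 positions, were lower with ZAK-alpha-RBR, with log2 ratios between -1.62 and -0.25. Those at 917 to 928, 929 to 931 and 932 to 934 adjoin, so they are not separate places. They all lie in the run at 903 to 934 where the mock was above. In the stretches over 25 positions the log2 ratios lay between -0.05 (1238 to 1278) and 0.82 (470 to 542). Whether stretch length sets the sign was not tested.

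Steps down also differed by the base before them. Over the segment, steps after a C made up 48.6% of the summed steps down for ZAK-alpha-RBR and 38.6% for the mock, and steps after a G made up 20.2% and 25.3%. In the rest of 28S, steps after a C made up 47.0% for ZAK-alpha-RBR and 36.2% for the mock. Steps from C to G, the most frequent mixed pair of the segment, held 26.3% of the steps down for ZAK-alpha-RBR and 31.4% for the mock. In the rest of 28S they held 17.8% for ZAK-alpha-RBR and 16.6% for the mock.

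GC content varied together with the ratio in the rest of 28S. Over 83 blocks of 50 positions in the rest of 28S, GC content correlated with the log2 ratio at r = 0.59 and with the log2 mock coverage at r = -0.79. Over the 17 full blocks of the segment the correlation with the ratio was r = 0.15, over a narrow range of GC content from 74.0% to 96.0%. In the 12 blocks of the segment with at least 80% GC the median log2 ratio was 0.60 (range -0.14 to 1.70), against 0.57 (range -0.42 to 1.11) in the 21 such blocks of the rest of 28S. In the 62 blocks of the rest of 28S with less GC the median was -0.24. The medians of the GC-rich blocks inside and outside the segment thus differed by little beside their ranges. The segment's blocks starting at 1086, 736 and 486 lay above the highest of all 83 blocks of the rest of 28S, at 1.11. On 18S, the block starting at 451 reached 1.95, above every block of the segment, and that at 401 reached 1.28. Both of these 18S blocks held 60% GC. All blocks come from the same pair of libraries, and the part of GC content in the ratio was not tested.

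**Figure D4:**
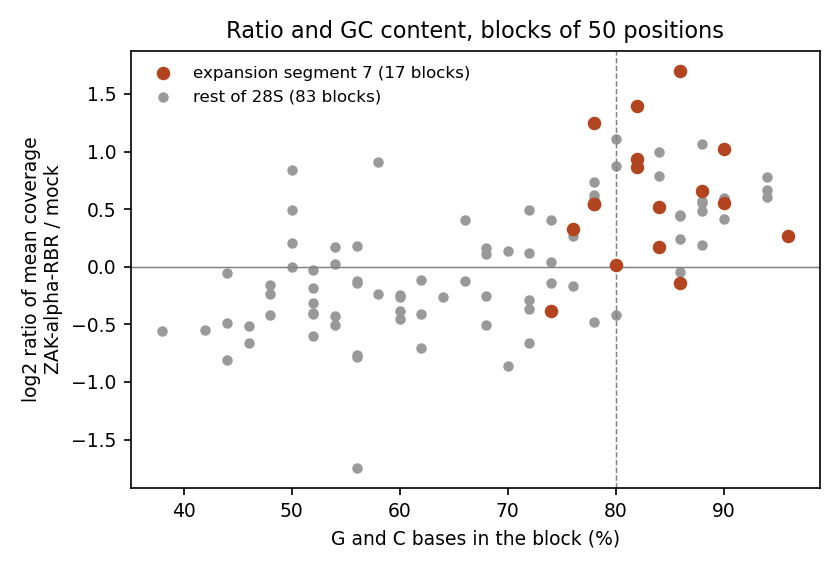
Log2 ratio of mean coverage against GC content for blocks of 50 positions, the 17 full blocks of the segment in red and 83 blocks of the rest of 28S in grey; the dashed line marks 80% GC. Red and grey blocks right of the line overlap, with medians of 0.60 and 0.57, and 3 red blocks stand above every grey one.

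Split by mock depth, 632 positions of the segment had under 5000 mock reads, and at 27.1% of them ZAK-alpha-RBR was 2-fold higher or more. In the rest of 28S the same depth class held 999 positions, of which 17.6% were 2-fold higher. Their median log2 ratios were 0.63 in the segment and 0.57 in the rest of 28S. Among positions of 5000 mock reads or more, the median was 0.49 for the 244 positions of the segment and -0.16 for the 3195 positions of the rest of 28S. The split uses the mock depth that also divides the ratio, so lower ratios in the deeper class are partly built in. By base, the median log2 ratio in the segment was 0.46 at A, 0.62 at C, 0.54 at G and 0.70 at U, so all 4 bases were higher with ZAK-alpha-RBR. In the rest of 28S the same medians were -0.26, 0.17, 0.13 and -0.16.

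The low points of both profiles lay in runs of equal bases. The segment holds 25 runs of 5 or more equal bases, 13 of C and 12 of G and at most 8 long. That is 2.85 per 100 positions, against 0.954 in the rest of 28S. The lowest depth within a run was at its first base in all 25 runs with ZAK-alpha-RBR and in 24 with the mock. The median run dropped to 21.1% of the lower of its flanking depths with ZAK-alpha-RBR and to 24.4% with the mock. The shallowest ZAK-alpha-RBR position of the segment, 1001, was such a first base, with 10 reads (4.80 to 18.4), and the mock had 202 reads there. The shallowest mock position, 629, had 18 ZAK-alpha-RBR reads and 118 mock reads and was the first of 5 G. At such positions the counting error of the ZAK-alpha-RBR value was wide: the ratio at 1001 was 0.570-fold, with an interval of 0.269 to 1.07.

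Repeated words of 20 bases lay in the middle of the segment. Of its 857 overlapping words of 20 bases, 7 occurred more than once in the 18S and 28S sequences of the table or on their opposite strand, and all lay in the CGG repeats at 847 to 867 and 869 to 892. Coverage there was low and close between the libraries, with 28.9 ppm with ZAK-alpha-RBR and 25.8 ppm with the mock in the first and 36.2 ppm and 29.5 ppm in the other. How reads with several placements were treated is not given in the sources used here. None of these words lay in the 4 higher regions. Shorter words, such as those within the GUCC repeat, were not counted.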

How the data were processed

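RNA from 2 pull-downs in U2OS cells (ZAK-alpha-RBR and mock, 1 library each) was joined to adaptors by a modified tRNA ligase for Ion Proton sequencing, as the labels' protocols state. Reads were trimmed and aligned with cutadapt 2.0 and Bowtie2 2.3.4.1, both named in the submitters' processing notes. For the reference, strand, duplicates and reads with several placements, the handling is not given in the sources used here. Segment positions were 436 to 1311 of 28S. Per the file headers the deposited values are normalized reads at each of 1870 positions of 18S and 5070 of 28S, a coverage signal in which a read counts at every position it spans. Both deposited columns sum to 78749474, and 100% of the ZAK-alpha-RBR column divides by 11.52 into whole reads (within 0.001 of a read). Depths were recovered this way, and their ZAK-alpha-RBR sum was 6835941.

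Coverage was divided by each library's sum. The positions named were all called regions, the 3 highest averaged peaks at least 30 positions apart and the 3 deepest positions of each library, and consecutive blocks of 50. The 3 shallowest positions, the 3 highest ratios, the 14 lower positions, C-A steps, repeats, runs of equal bases, and the GC and depth classes were chosen after values were seen. The segment and all rules were chosen with earlier results of these data known. The region rule was run on simulated reads, with and without planted differences, that vary by counting error only. That run says nothing of the spread between libraries. Alternatives covered scaling, pseudocounts, low coverage, filled dips, windows, limits, baselines and the edges of the segment. Dips were filled by raising runs of 3 or more equal bases to the lower flanking depth. Python 3.11.15, numpy 2.4.6, pandas 2.3.3 and scipy 1.17.1 were used.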

Additional observations from a re-analysis of the deposited data

How the results depend on the processing

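The log2 ratio of the mean coverage of the segment, 0.63, was above 0 under all 10 alternatives. It was 0.53 with scaling by the median of ratios, which shifts every log2 ratio by -0.10. Without the 4 higher regions, an alternative chosen after seeing the data, it was 0.45. It was 0.74 over the 302 positions left by a filter at the lower quartile of coverage over the whole table. That filter took the mean of both libraries, so positions could pass through high ZAK-alpha-RBR coverage, and the 0.74 is not an independent check. The ZAK-alpha-RBR share of 6.81% was 5.96% with the segment narrowed by 25 positions on each side, 7.49% with it widened, and 10.6% of 28S alone, where the mock shares were 3.86%, 5.01% and 6.52%. The 183 positions at least 2-fold higher became 103 with a pseudocount of 10 ppm and 82 with that filter (27.2% of the 302 positions kept, against 20.9% of all 876), and the 14 lower ones became 8 and 6. Because the filter favours positions with high ZAK-alpha-RBR coverage, these percentages do not show that the excess grows with coverage. The 4 higher regions became 11 with a 1.5-fold limit, which also gave 3 lower regions, and 2 with a 3-fold limit, those at 759 to 793 and 1086 to 1110. All other alternatives gave 3 to 5 higher and 0 lower regions. The share of steps down after a C was 57.9% for ZAK-alpha-RBR and 45.9% for the mock with dips filled. No paired analysis was possible because each group has 1 library, and for the same reason no replicate could be left out. At the shallowest positions depth limits the ratio.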
